A study of Mus musculus with 12 samples.

Results

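Genes of the MHC class I presentation pathway were read from a table of RNA-seq counts of mouse lung. There were 10 of them, taken by symbol from the 78298 gene identifiers of the table: the heavy chains H2-K1, H2-D1, H2-T22 and H2-T23, the light chain B2m, the peptide transporter subunits Tap1 and Tap2, the loading factor Tapbp, the peptide-trimming enzyme Erap1 and the transactivator Nlrc5. All 10 passed the filter on low counts, which left 22190 genes to test. The members were selected on their symbols, by a proposal made with the fold changes of these same libraries in view. Counts of members past a threshold therefore describe the members and support nothing about them. The samples were 12 lung libraries in 4 groups of 3: normal adjacent lung labelled VEH, normal adjacent lung labelled HDM, LLC tumours labelled VEH and LLC tumours labelled HDM. HDM stands for house dust mite, per the series title, and VEH and LLC are used as labelled, without strain, age, dose or duration being given. Normal and tumour pieces were cut by hand under a binocular microscope, so each is a mixture of cell types. Nothing says that replicates of a group came from separate animals, and p-values then measure only the spread between these samples. In bulk tissue, fewer cells of a type and less RNA per cell cannot be told apart.

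A classical class I molecule is a heavy chain bound to beta-2 microglobulin (the product of B2m) that holds a short peptide at the cell surface. There CD8 T cells and natural killer cells read it. Proteasomes, and in inflamed cells immunoproteasomes, cut cytosolic proteins into peptides. The TAP transporter moves the peptides into the endoplasmic reticulum, ERAP1 trims them, and tapasin (Tapbp) holds the empty heavy chain near the transporter until a peptide binds. Interferon gamma is known to raise nearly all of these genes, in part through IRF1, and NLRC5 is the transactivator that works at class I promoters. Nearly all nucleated cells carry class I molecules, and loss of them is a known way for tumours to avoid CD8 T cells.

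The promoters of 4 members are shown because the results set them apart: H2-K1 and H2-D1 are the classical heavy chains whose counts came apart in tumours, B2m is their common partner, and Erap1 had the smallest difference between the tumour groups. Each line gives the 250 bases before the annotated start of the gene, 5′ to 3′ on the gene's strand, from RefSeq on GRCm38.p6. Capitals mark matches to the interferon-stimulated response element core (GAAANNGAA), the kappa B letters (GGGNNTTCC) and the letters TGACG of the X2 box, on either strand.
H2-K1: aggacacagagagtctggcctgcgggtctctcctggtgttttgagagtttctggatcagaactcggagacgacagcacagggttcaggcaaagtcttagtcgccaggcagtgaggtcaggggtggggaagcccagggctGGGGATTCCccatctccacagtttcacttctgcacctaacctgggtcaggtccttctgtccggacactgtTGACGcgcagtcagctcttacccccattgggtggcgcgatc
H2-D1: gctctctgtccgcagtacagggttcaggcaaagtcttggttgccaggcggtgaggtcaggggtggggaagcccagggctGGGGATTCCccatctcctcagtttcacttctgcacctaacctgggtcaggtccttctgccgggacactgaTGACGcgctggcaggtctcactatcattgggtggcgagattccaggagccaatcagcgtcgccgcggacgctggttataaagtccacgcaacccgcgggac
B2m: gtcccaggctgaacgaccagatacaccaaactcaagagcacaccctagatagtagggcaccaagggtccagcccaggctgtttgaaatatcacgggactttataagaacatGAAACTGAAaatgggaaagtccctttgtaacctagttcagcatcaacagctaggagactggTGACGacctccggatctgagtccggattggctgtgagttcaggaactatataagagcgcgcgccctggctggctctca
Erap1: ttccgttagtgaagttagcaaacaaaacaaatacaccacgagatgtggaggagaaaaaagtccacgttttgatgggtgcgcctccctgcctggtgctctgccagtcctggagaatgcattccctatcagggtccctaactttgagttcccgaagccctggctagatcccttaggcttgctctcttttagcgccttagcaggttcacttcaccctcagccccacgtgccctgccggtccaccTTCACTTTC

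These windows lie at chr17:34000348-34000597 on the minus strand for H2-K1, and on the plus strand at chr17:35262844-35263093 for H2-D1, chr2:122147437-122147686 for B2m and chr13:74639603-74639852 for Erap1. RefSeq windows of 300 bases, 250 before to 50 after the start, were matched for 8 of the 10 members, not for Tap2 and Nlrc5. The windows of H2-K1 and H2-D1 aligned over 228 columns with 206 identical bases (90.4%). Both held the same kappa B letters, GGGGATTCC, at -111 to -103 from the start of H2-K1 used here and at -171 to -163 from that of H2-D1. From another RefSeq start of H2-K1 these letters lie at -125 to -117. Kappa B letters were found in 2 of the 8 member windows, against 5.82% of all 32851 windows. The response element core was in 4 (H2-T22, H2-T23, B2m and Erap1), against 8.56% of windows, and in Erap1 2 matches that overlap each other ended at and crossed the start. TGACG was in 5 (H2-K1, H2-D1, H2-T22, B2m and Tap1), against 20.8% of windows. CCAAT, the Y box, was in 7 (all but Erap1), against 37.4%. The letters TTCNNNGAA, the GAS element, were searched in the same way and were in 0 of the 8, against 8.30% of windows. No match of one motif shared bases with a match of another in these windows. Only exact letters were counted, so other spellings of an element were not searched, in H2-K1 and H2-D1 as elsewhere. A match is a description of letters, not a site in use, and no match says nothing about a factor.

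Library totals lay between 20608682 and 32765364 counts, and member counts per library between 119 (Nlrc5) and 60101 (H2-D1). Normal pieces carried lung markers: the summed level of 6 alveolar epithelial markers was 16938 to 42351 CPM (counts relative to the TMM-adjusted library size) in them and 38.0 to 8429 CPM in tumours. Dividing-cell markers went the other way, at 25.3 to 140 CPM in normal pieces and 462 to 952 CPM in tumours, and all 5 of them rose in both comparisons of tumour with normal tissue. No list of markers that define LLC cells was used. Among tumours, VEH replicate 2 had the most alveolar (8429 CPM) and airway marker counts (19284 CPM), and HDM replicate 3 had the least of both (38.0 and 3.52 CPM). Library names carry 6 prefixes, each shared by 1 normal and 1 tumour library. In 2 of them the treatment labels conflict, since tumour HDM replicate 2 has its prefix in common with normal VEH replicate 2 and tumour VEH replicate 3 has its prefix in common with normal HDM replicate 3. Groups follow the labels throughout.

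Under VEH 4 of the 10 members rose in tumours against adjacent lung, most of all the transactivator Nlrc5 and the transporter subunit Tap1, and 6, among them all 4 heavy chains, did not pass. Under HDM 4 fell in tumours, led by the heavy chains H2-K1 and H2-T23. Between the tumour groups the heavy chain H2-T22 and the transporter subunit Tap2 fell under HDM and the other 8 did not pass, and in adjacent lung no member passed between treatments. In numbers, under VEH 4 members (Tap1, Tap2, Erap1 and Nlrc5) passed an adjusted p below 0.05 as higher in tumours (edgeR quasi-likelihood test, Benjamini-Hochberg over all genes), where 18.2% of all genes did and 38.9% passed in either direction. The member median was a log2 fold change of 0.56, against -0.11 over all genes. Under HDM 4 members (H2-K1, H2-T22, H2-T23 and Tap2) passed as lower in tumours, where 28.9% of all genes did and 51.9% passed in either direction, and the median was -0.83, against -0.08. Without tumour HDM replicate 3 this median was -0.41, and 3 members passed as lower and 1 (Erap1) as higher. Without both tumours that stand apart in their markers (VEH replicate 2 and HDM replicate 3, a choice made after seeing the data) it was -0.51, and 3 passed as lower and 1 (Nlrc5) as higher. The smallest adjusted p-values outside the threshold were 0.0614 (H2-T22) under VEH and 0.0510 (Tap1) under HDM, and the largest inside were 0.0378 (Tap2) and 0.0199 (H2-T22). Scaling by library size alone moved the median of all genes from -0.11 to 0.03 under VEH and from -0.08 to 0.10 under HDM, and 7 and 3 members then passed. Tap1 and Nlrc5 under VEH, and H2-K1, H2-T23 and Tap2 under HDM, passed in all 6 fits that left out 1 library of the groups compared. With the library-name prefix as a block, and likewise without the 4 libraries of conflicting prefixes, Tap1 was the 1 member that passed under VEH, so that Nlrc5, Tap2 and Erap1 did not, and under HDM H2-K1, H2-D1, H2-T23 and Tap2 passed and H2-T22 did not. Among the fits that left out 1 library, Tap2 under VEH passed only without normal VEH replicate 1 or tumour VEH replicate 2. Among the same fits, Erap1 under VEH passed only without tumour VEH replicate 1, and H2-T22 under HDM only without normal HDM replicate 2.

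Between HDM and VEH tumours, the log2 fold change was below 0 for all 10 members, with a median log2 fold change of -1.34, against -0.03 over all genes. At an adjusted p below 0.05, 2 members passed as lower, H2-T22 (adjusted p 0.0446) and Tap2 (0.0274), where 0.0856% of all genes did and 0.0946% passed in either direction (edgeR). Tap1 lay just outside at 0.0527. All 10 were below an unadjusted p of 0.05, as were 16.7% of all genes, and 8 (all but Erap1 and Nlrc5) passed with DESeq2's Wald test, which called 6.16% of the genes it gave an adjusted p. The 2 edgeR calls rest on having all 6 tumours: no member passed without VEH replicate 1, 2 or 3 or HDM replicate 1 or 2, and without HDM replicate 3 Tap2 passed alone (adjusted p 0.0441). The member median stayed between -1.10 (without HDM replicate 3) and -1.55 (without VEH replicate 2) in those fits. Without the 4 libraries of conflicting prefixes no member passed, with log2 fold changes of -1.44 for H2-T22 and -1.25 for Tap2. In adjacent lung, 0 members passed, as did 0% of all genes (edgeR). None was below an unadjusted p of 0.05 there, where 5.54% of all genes were, and DESeq2 called 0 members and 0.206% of genes. Log2 differences in adjacent lung ran from -0.25 (H2-T22) to 0.29 (Nlrc5), with a median of 0.09 against -0.01 over all genes.

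The interaction, which is the tumour-to-normal difference under HDM minus that under VEH, was below 0 for all 10 members. It ran from -0.42 (Erap1) to -2.25 (Tap1), with a median of -1.50 against -0.02 over all genes. By edgeR 0 members and 0% of all genes passed the adjusted threshold. Below an unadjusted p of 0.05 were 9 members (all but Erap1), against 9.39% of all genes, and DESeq2 called 5 (H2-K1, H2-T22, H2-T23, Tap1 and Tap2), against 1.02%. The comparisons share libraries, so their values are not independent of each other.

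**Figure D1:**
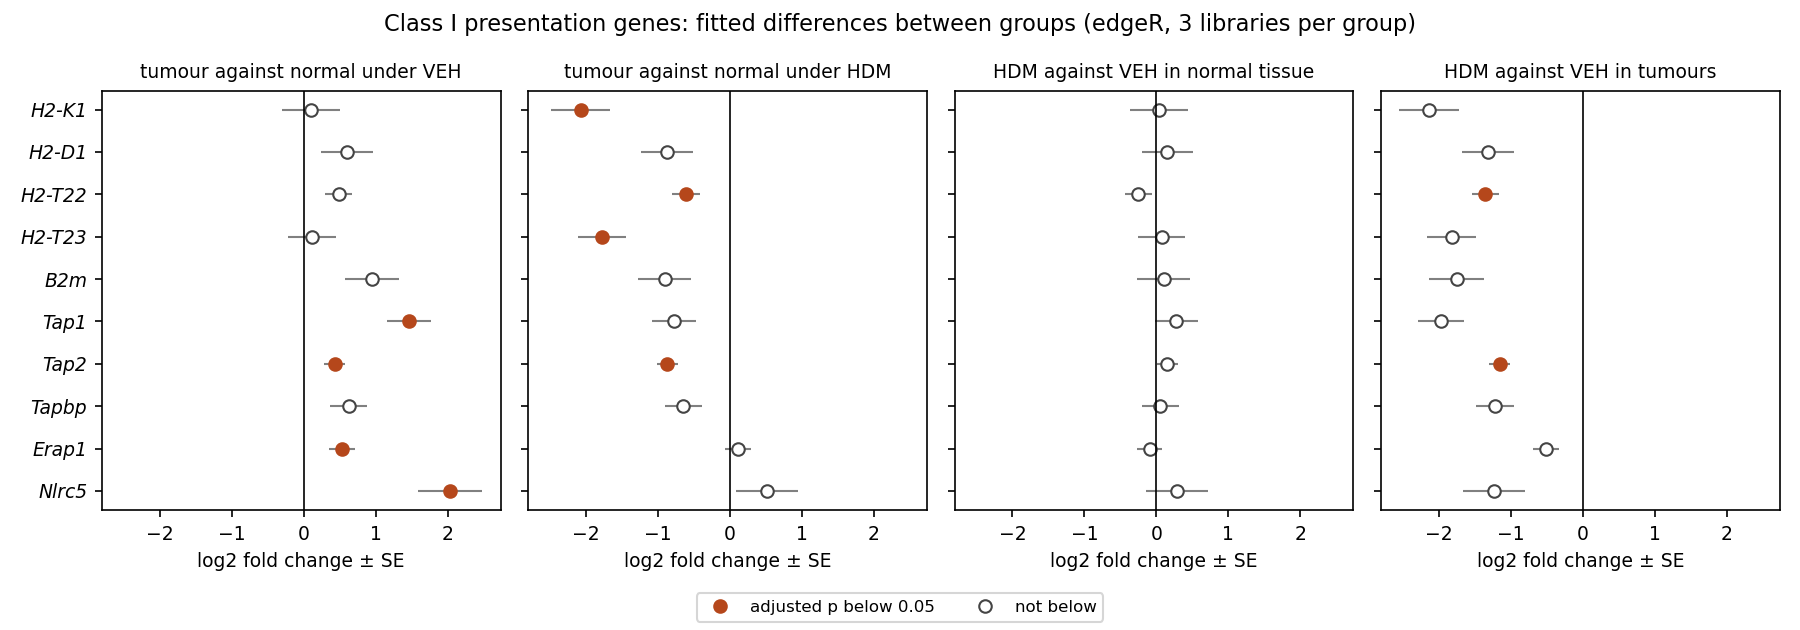
Log2 fold changes ± SE of the 10 members in 4 comparisons (x axis; 3 libraries per group, edgeR), with filled points where the adjusted p over all genes was below 0.05. Points lie right of 0 for all members under VEH, left of 0 for 8 of 10 under HDM, near 0 in adjacent lung and left of 0 for all members in HDM against VEH tumours.

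H2-K1 encodes a classical heavy chain (ENSMUSG00000061232, chromosome 17, 34214987 to 34219321, minus strand, GRCm39). In normal VEH replicates 1, 2 and 3 it stood at 992, 1375 and 1284 CPM, and in normal HDM at 1496, 1368 and 887 CPM. VEH tumours held 1101, 1725 and 1087 CPM, and HDM tumours held 425, 346 and 119 CPM. Every HDM tumour was below all 9 other libraries, while the other 3 groups overlapped. The log2 fold change was -2.14 ± 0.42 (SE) between HDM and VEH tumours and -2.08 ± 0.42 between HDM tumours and their adjacent lung (4.22 times lower). Between VEH tumours and normal VEH lung it was 0.10 ± 0.40.

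H2-D1, the second classical heavy chain (ENSMUSG00000073411, chromosome 17, 35481691 to 35486475, plus strand) was at 956, 1891 and 1346 CPM in normal VEH, 2120, 1619 and 926 CPM in normal HDM, 2403, 2064 and 1880 CPM in VEH tumours and 937, 1105 and 503 CPM in HDM tumours. HDM tumours lay below every VEH tumour but overlapped adjacent lung, where normal HDM replicate 3 and normal VEH replicate 1 lay within their range. The log2 fold change was -1.32 ± 0.36 between the tumour groups, -0.87 ± 0.36 for tumour against normal under HDM and 0.60 ± 0.36 under VEH.

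H2-T22 and H2-T23 are non-classical heavy chains that lie side by side on chromosome 17 (ENSMUSG00000056116, 36348020 to 36353650, and ENSMUSG00000067212, 36340229 to 36345571, both minus strand). The product of H2-T23, Qa-1, is known to show leader peptides of other class I chains to the receptor pair Klrd1 and Klrc1 on natural killer cells. That of H2-T22 is a known ligand of some gamma delta T cells. H2-T23 stood at 195, 241 and 221 CPM in normal VEH, 284, 216 and 191 CPM in normal HDM, 290, 225 and 196 CPM in VEH tumours, and 79.5, 90.6 and 31.2 CPM in HDM tumours. As for H2-K1, HDM tumours were apart from the other 3 groups, which overlapped. H2-T22 stood at 98.9, 105 and 118 CPM in normal VEH and at 106, 83.0 and 81.2 CPM in normal HDM. It was at 179, 121 and 152 CPM in VEH tumours and at 63.8, 67.0 and 46.0 CPM in HDM tumours. For this gene VEH tumours lay above and HDM tumours below all normal libraries. Log2 fold changes between the tumour groups were -1.82 ± 0.34 for H2-T23 and -1.35 ± 0.19 for H2-T22.

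B2m, the light chain that all class I heavy chains need (ENSMUSG00000060802, chromosome 2, 121977957 to 121983594, plus strand), stood at 646, 1074 and 1056 CPM in normal VEH and at 1286, 1144 and 554 CPM in normal HDM. VEH tumours held 1953, 1640 and 1770 CPM and HDM tumours 688, 619 and 284 CPM. The lowest VEH tumour was above every other library, and HDM tumours overlapped both normal groups. The log2 fold change was -1.75 ± 0.38 between the tumour groups, 0.95 ± 0.37 for tumour against normal under VEH and -0.91 ± 0.37 under HDM.

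Tap1 and Tap2 encode the paired subunits of the peptide transporter (ENSMUSG00000037321, 34405996 to 34416199, and ENSMUSG00000024339, 34422501 to 34435829, both on chromosome 17, plus strand). Tap1 was at 43.2, 54.9 and 46.8 CPM in normal VEH, 69.2, 57.3 and 49.2 CPM in normal HDM, 162, 95.3 and 143 CPM in VEH tumours, and 41.2, 42.9 and 18.1 CPM in HDM tumours. VEH tumours lay above and HDM tumours below all normal libraries, and the fall from the one to the other was -1.97 ± 0.31 on the log2 scale. Tap2 was steadier, with 112, 99.1 and 93.8 CPM in normal VEH, 116, 106 and 115 CPM in normal HDM, 146, 128 and 136 CPM in VEH tumours, and 65.5, 70.3 and 48.9 CPM in HDM tumours. Its 4 groups had the same order with a smaller difference, -1.15 ± 0.15 between the tumour groups. Against adjacent lung, Tap1 differed by 1.46 ± 0.31 under VEH and -0.78 ± 0.31 under HDM, and Tap2 by 0.43 ± 0.15 and -0.87 ± 0.15.

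Tapbp encodes tapasin, which tethers heavy chains to the transporter (ENSMUSG00000024308, chromosome 17, 34134873 to 34148267, plus strand). Its levels were 361, 365 and 323 CPM in normal VEH, 390, 372 and 329 CPM in normal HDM, 610, 437 and 574 CPM in VEH tumours and 257, 305 and 133 CPM in HDM tumours. VEH tumours were above and HDM tumours below all normal libraries, with -1.22 ± 0.26 on the log2 scale between the tumour groups. Erap1, which trims peptides after transport (ENSMUSG00000021583, chromosome 13, 74787687 to 74841320, plus strand), was at 118, 98.5 and 118 CPM in normal VEH, 95.8, 113 and 104 CPM in normal HDM, 156, 158 and 168 CPM in VEH tumours and 116, 140 and 82.0 CPM in HDM tumours. VEH tumours stood above the other 9 libraries, but HDM tumours overlapped adjacent lung (log2 fold change 0.11 ± 0.18). The difference between the tumour groups, -0.51 ± 0.18, was the smallest of the 10 members.

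Nlrc5 encodes the class I transactivator (ENSMUSG00000074151, chromosome 8, 95160984 to 95253900, plus strand). Per length it was the least abundant member, and it stood at 4.89, 7.24 and 9.14 CPM in normal VEH and 7.74, 10.6 and 7.62 CPM in normal HDM. VEH tumours held 38.5, 12.2 and 36.7 CPM and HDM tumours 15.2, 14.6 and 7.46 CPM. VEH tumour replicates 1 and 3 were far above all others, while VEH replicate 2 lay within the range of HDM tumours, so the tumour groups overlapped. The log2 fold change was 2.04 ± 0.45 for tumour against normal under VEH, a level 4.11 times higher, and 0.52 ± 0.43 under HDM, while between the tumour groups it was -1.23 ± 0.44.

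**Figure D2:**
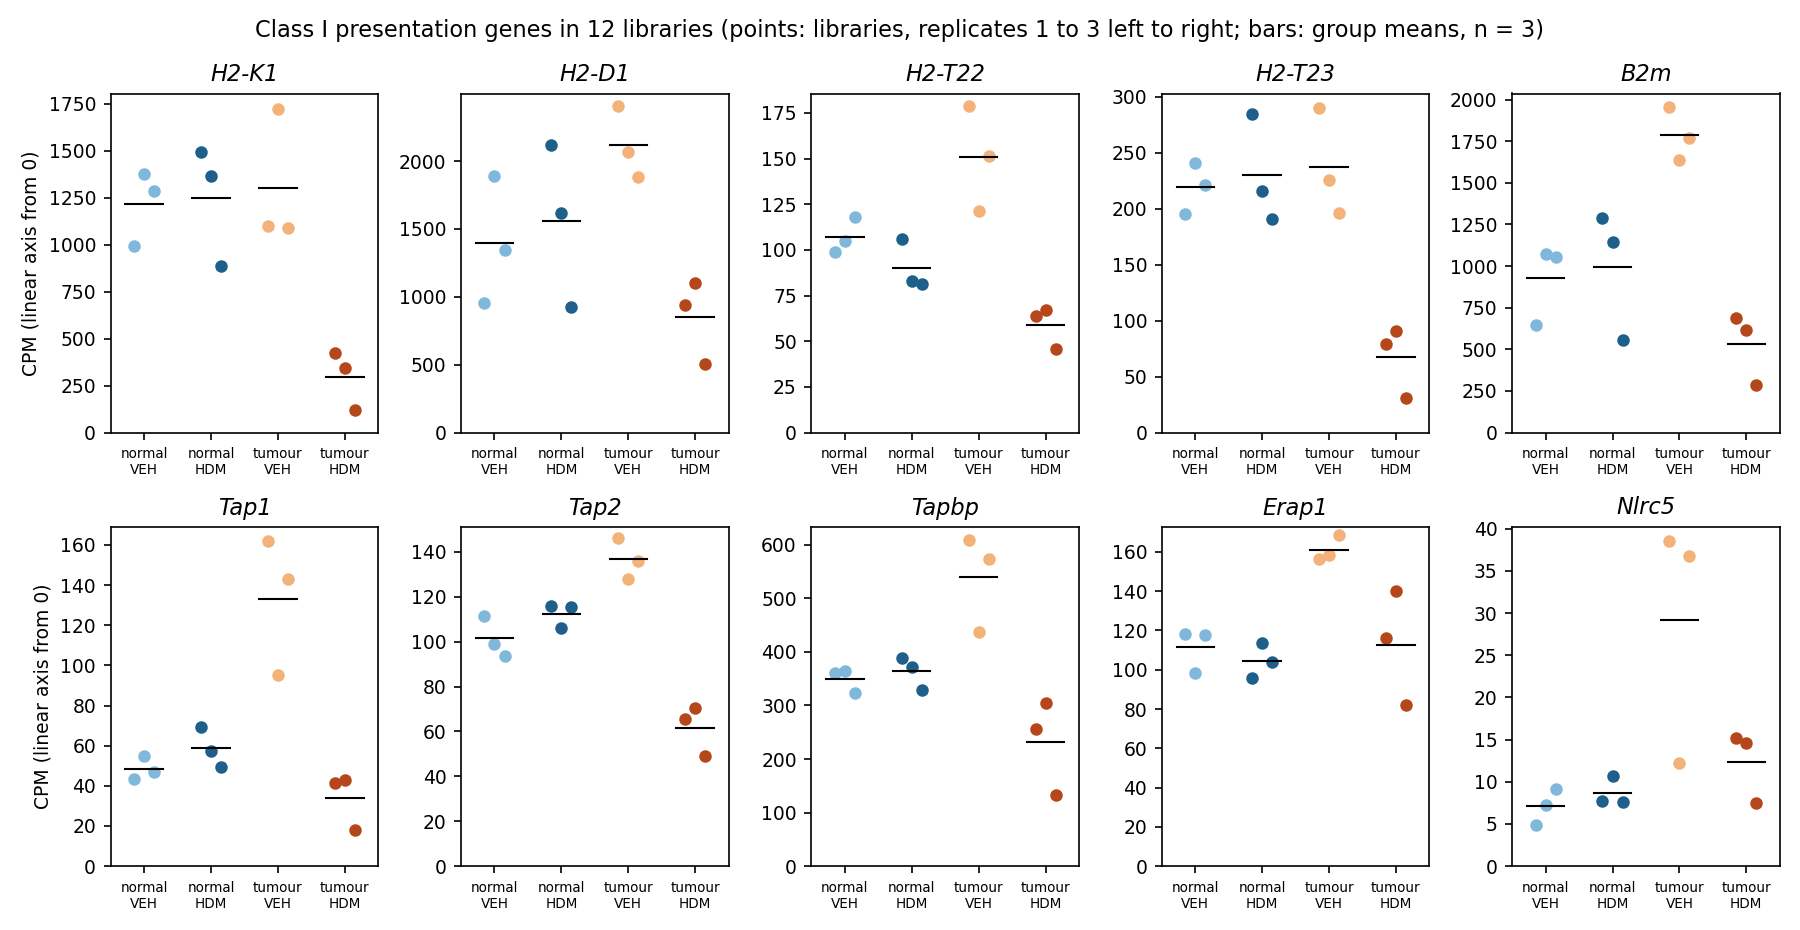
CPM of each member (y axis, linear from 0) in 12 libraries by group (x axis), with points for libraries and bars for means of 3. HDM tumours are lowest for H2-K1 (119 to 425 CPM) and H2-T23 (31.2 to 90.6 CPM), and VEH tumours stand highest for B2m (1640 to 1953 CPM), Tap1 (95.3 to 162 CPM) and Erap1 (156 to 168 CPM).

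The libraries of the 2 groups did not overlap for 7 members higher in tumours under VEH (all but H2-K1, H2-D1 and H2-T23), where 23.9% of all genes were higher without overlap. Under HDM they did not overlap for 6 members lower in tumours (H2-K1, H2-T22, H2-T23, Tap1, Tap2 and Tapbp), where 33.5% of all genes were. Between the tumour groups 9 members, all but Nlrc5, were lower under HDM without overlap, where 10.7% of all genes were. In adjacent lung this held for 0 members in either direction, and for 10.3% of all genes. Single libraries stood out across members. Tumour HDM replicate 3 was the lowest of the 12 libraries for 9 members (normal VEH replicate 1 was lowest for Nlrc5), and tumour VEH replicate 1 was the highest for 8 (VEH replicate 2 for H2-K1 and VEH replicate 3 for Erap1).

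Per kilobase of the deposited gene length, the order of levels in normal VEH was B2m (1076 CPM per kb), H2-D1 (542), H2-K1 (414), Tapbp (96.3), H2-T23 (75.8), H2-T22 (31.4), Tap2 (26.8), Erap1 (15.3), Tap1 (8.82) and Nlrc5 (0.834 CPM per kb). Neighbours in this order whose libraries overlapped were H2-D1 with H2-K1 and H2-T22 with Tap2. In VEH tumours the order was the same except that Tap1 (24.3 CPM per kb) passed Erap1 (22.1), with overlapping libraries. H2-T22 (35.5 to 52.4) and Tap2 (33.9 to 38.7) overlapped in VEH tumours as well. B2m reached 2079 CPM per kb there, above every H2-D1 value (729 to 932). The means of HDM tumours kept the order of normal VEH, but B2m (617) and H2-D1 (329) overlapped. H2-K1 (101 CPM per kb, 40.6 to 145) overlapped Tapbp (63.9, 36.7 to 84.1) and, as in VEH tumours, not H2-D1 (195 to 429). H2-T23 (10.8 to 31.4), H2-T22 (13.5 to 19.6), Tap2 (12.9 to 18.6) and Erap1 (11.3 to 19.2) all overlapped, so their order was not resolved.

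Ratios of counts within a library do not depend on how libraries are scaled. H2-K1 to H2-D1 was 0.706 to 1.04 over the 6 normal libraries, 0.458, 0.836 and 0.578 in VEH tumours, and 0.453, 0.313 and 0.237 in HDM tumours. Every HDM tumour was below every other library in this ratio, though tumour HDM replicate 1 was close to tumour VEH replicate 1. Tap1 to Tap2 was 0.387 to 0.596 in normal libraries, 1.11, 0.744 and 1.05 in VEH tumours and 0.628, 0.610 and 0.370 in HDM tumours. VEH tumours thus held more Tap1 for each Tap2 than any other library. Erap1 to Tap2 was 0.825 to 1.26 in normal libraries and 1.07, 1.24 and 1.24 in VEH tumours, which overlapped, and 1.78, 1.99 and 1.68 in HDM tumours, which lay above all others. These 3 ratios were picked after their values were seen and carry no test.

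**Figure D3:**
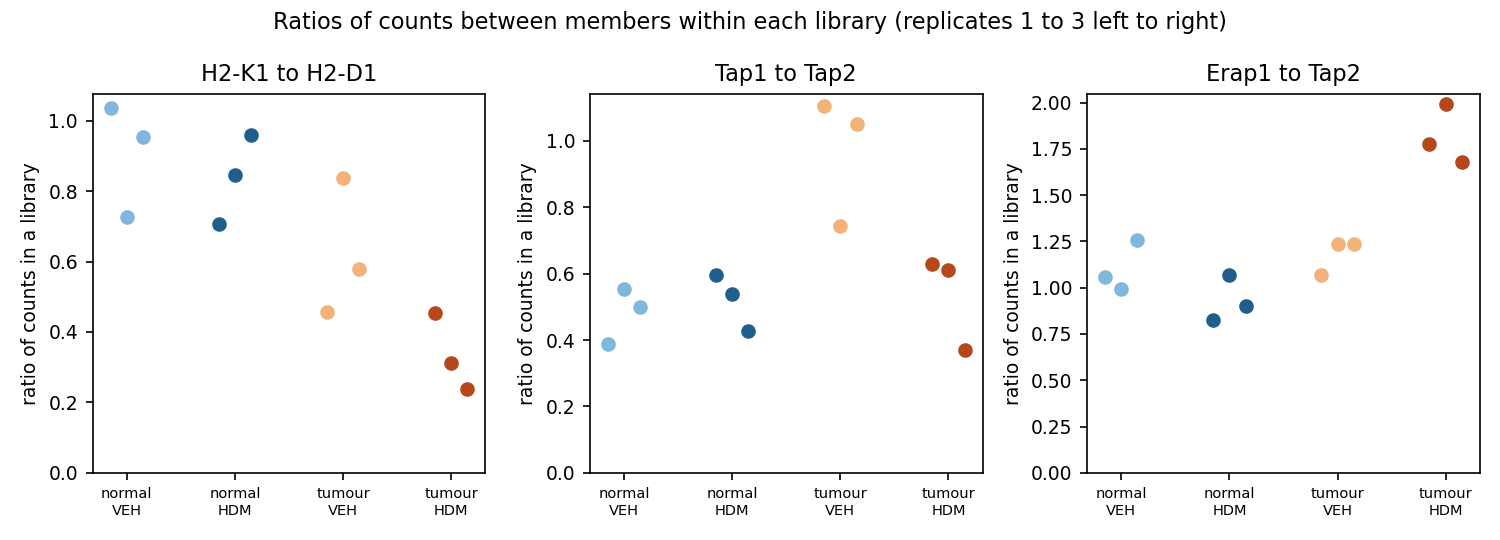
Ratio of counts between 2 members in each library (y axis, linear from 0) by group (x axis; points are replicates 1 to 3 from left to right). H2-K1 to H2-D1 was lowest in HDM tumours (0.237 to 0.453), Tap1 to Tap2 highest in VEH tumours (0.744 to 1.11) and Erap1 to Tap2 highest in HDM tumours (1.68 to 1.99).

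Across the 12 libraries the 45 pairs of members had a median Pearson r of 0.81 between their log2 CPM values (0.066 to 0.97). Over the 6 tumours the median was 0.96 (0.65 to 0.999), and over the 6 normal libraries 0.40 (-0.75 to 0.995). The tumour points fall into the treatment groups, so these values largely restate that difference and are a description only. Among 11001 other protein-coding genes with an average log2 CPM of at least 3, the 8 whose log2 CPM was most like the mean of the standardised members over 12 libraries were Ifi47 (r 0.988), Irgm2, Gbp5, Tgtp2, Cxcl16, Ifit3, Rtp4 and Xaf1 (0.922). Over the 6 tumours they were Ifi47 (r 0.999), Igtp, Gbp4, Irgm1, Plbd1, Irgm2, Rgs3 and Serpinb9 (0.991). Ifi47, Irgm1, Irgm2, Igtp and Tgtp2 encode interferon-inducible GTPases of the IRG family, Gbp4 and Gbp5 guanylate-binding proteins, and Cxcl16 a chemokine.

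The other genes of the pathway were counted by list, against the same 38.9% (VEH) and 51.9% (HDM) of all genes called in tumour against normal tissue. Counts without overlap between the tumour groups stand against the 10.7% of all genes that were lower under HDM in this way. These lists, too, were drawn up with results of these libraries known. The immunoproteasome and its PA28 activator, which supply peptides to the transporter, had 5 genes. Between HDM and VEH tumours all 5 fell (edgeR). The log2 fold changes were -2.13 ± 0.28 for Psmb8 (adjusted p 0.0340), -2.10 ± 0.32 for Psmb9 (0.0446), -1.69 ± 0.20 for Psmb10 (0.0274), -1.09 ± 0.14 for Psme1 (0.0274) and -1.13 ± 0.14 for Psme2 (0.0274). Psmb8 stood at 100, 111 and 90.3 CPM in VEH tumours and at 27.5, 29.3 and 12.0 CPM in HDM tumours, apart from each other and on either side of adjacent lung (67.3 to 93.0 CPM) but for the overlap of VEH replicate 3 with normal HDM. None of the 5 passed without VEH replicate 1, 2 or 3 or HDM replicate 1 or 2, and 4 passed without HDM replicate 3. Against adjacent lung 4 of 5 fell in HDM tumours (all but Psme2) and 3 of 5 rose in VEH tumours (Psmb10, Psme1 and Psme2). The VEH count was 1 without normal VEH replicate 2 or 3 or tumour VEH replicate 2.

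Of the 17 other class I and class I-like chains 15 were tested. In HDM tumours 11 fell against adjacent lung and 0 rose, and in VEH tumours 5 fell (H2-Q1, Cd1d1, H2-T24, Hfe and Mr1) and 0 rose. The HDM count was 7 without tumour HDM replicate 3, and the VEH count 3 without normal VEH replicate 3 or tumour VEH replicate 1 or 3. H2-Q1 was at or under 3 counts in every tumour. Under HDM the log2 fold change was -3.69 ± 1.06 for H2-Q2 and -2.47 ± 0.44 for H2-Q4 (adjusted p 0.0013). H2-Q4 was at 193, 133 and 195 CPM in normal HDM and 42.4, 39.8 and 11.8 CPM in HDM tumours. Mr1, which presents vitamin B metabolites, fell under both treatments (-1.18 ± 0.26 under VEH and -1.59 ± 0.27 under HDM), and so did the lipid-presenting chain Cd1d1 (-1.63 ± 0.43 and -1.56 ± 0.43). Between the tumour groups none of the 15 passed, and 7 were lower under HDM without overlap.

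Of 9 chaperones and folding enzymes of class I assembly, which serve many other proteins too, 8 rose in VEH tumours, with Uggt1 (1.64 ± 0.27) and Prkcsh (1.38 ± 0.14) highest. In HDM tumours 6 rose, 1 fell and 2 did not pass, again with Uggt1 (1.59 ± 0.27) and Prkcsh (0.98 ± 0.14) highest. Tapbpl, a relative of tapasin that edits peptides, fell by 1.29 ± 0.30 in HDM tumours (adjusted p 0.00464) and its difference was 0.24 ± 0.29 in VEH tumours. Of 7 cytosolic and endosomal peptidases, which cut or destroy peptides outside the TAP route or before it, 6 rose in VEH tumours and 7 in HDM tumours. Thop1 (1.30 ± 0.24 under VEH, 1.35 ± 0.24 under HDM) and Tpp2 (1.15 ± 0.15 and 1.19 ± 0.15) rose most. Between the tumour groups no gene of either list passed. Without overlap, 3 of the chaperones and folding enzymes were lower under HDM, and of the peptidases 1 was lower and 1 higher.

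Among 16 regulators known to act at class I promoters, 6 rose in VEH tumours, among them Ezh2 and Stat2. Under HDM 3 rose (Ezh2, Atf1 and Nfya) and 2 fell (Irf9 and Irf2). Ezh2, a histone methyltransferase known to silence class I genes, rose by 1.93 ± 0.40 under VEH and 2.38 ± 0.41 under HDM. Irf1, a direct activator of class I promoters, differed between the tumour groups by -1.50 ± 0.32 (adjusted p 0.114) without overlap, and Rfx5, which binds the X box with NLRC5, by 0.14 ± 0.21 with overlap. No regulator passed between the tumour groups. In the interferon gamma receptor chain of 5 genes, Jak1 rose under both treatments (0.74 ± 0.17 and 0.60 ± 0.17) and Ifngr1 fell under HDM (-0.77 ± 0.21), though not without tumour HDM replicate 1 or 3. Ifng itself had 3 counts or fewer in every normal library. It had 13, 2 and 26 counts in VEH tumours and 0, 16 and 0 in HDM tumours, so its level could not be compared at this depth.

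**Figure D4:**
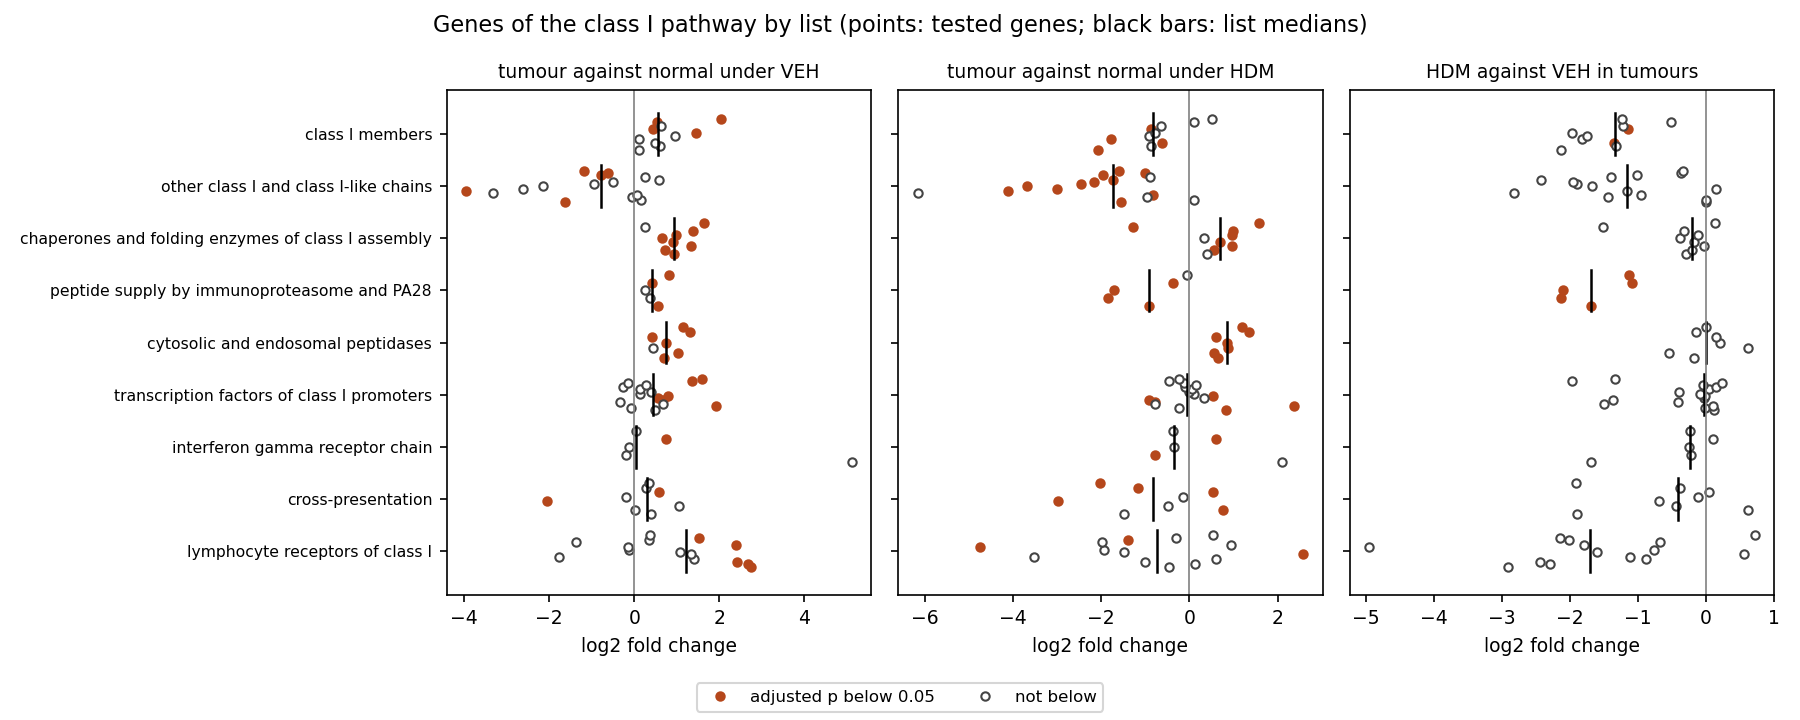
Log2 fold changes (x axis) of the tested genes of 8 pathway lists and of the 10 members (rows) in 3 comparisons; filled points have an adjusted p below 0.05 and black bars are list medians. In HDM against VEH tumours the 5 immunoproteasome and PA28 genes are filled and all lie left of -1, while chaperones and peptidases centre near 0 (medians -0.20 and 0.01).

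Of 15 lymphocyte receptors that read class I, 14 were tested, and 5 rose in VEH tumours: Cd160 (2.75 ± 0.82), the CD8 chains Cd8a (2.68 ± 0.83) and Cd8b1 (2.42 ± 0.86), Klrc1 (2.38 ± 0.78) and Klrk1 (1.53 ± 0.50). The count was 0 without normal VEH replicate 1 or 3 or tumour VEH replicate 3, and 1 without tumour VEH replicate 1. Under HDM Klra4 rose (2.58 ± 0.69) and Klrd1 (-1.40 ± 0.49) and Klra9 fell, the last at 3 counts or fewer in every HDM tumour. Neither fall passed without normal HDM replicate 1 or 3 or tumour HDM replicate 1. Klra genes are a family of near-identical copies, so their counts are uncertain. Between the tumour groups none passed, and 9 were lower under HDM without overlap. Cd8a was at 13.4, 6.99 and 20.3 CPM in VEH tumours and at 4.31, 3.83 and 0.182 CPM in HDM tumours.

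T cell markers followed the members only in part. The summed level of 7 T cell markers was 13.2 to 26.8 CPM in normal VEH, 24.5 to 36.4 CPM in normal HDM, 47.9 to 73.8 CPM in VEH tumours and 2.09 to 17.5 CPM in HDM tumours. All 7 were lower in HDM than in VEH tumours without overlap, where 10.7% of all genes were, and 0 passed the adjusted threshold. In adjacent lung 3 of the 7 were higher under HDM without overlap and 0 passed. There 10.3% of all genes did not overlap in either direction. The median log2 fold change of the 7 in adjacent lung was 0.75, against 0.09 for the members. The 5 natural killer cell markers summed to 6.69 to 11.3 CPM in VEH tumours and 1.82 to 2.83 CPM in HDM tumours, with 4 lower without overlap. The sum of 4 general leukocyte markers overlapped between VEH (407 to 746 CPM) and HDM tumours (311 to 494 CPM), and so did those of 8 macrophage and monocyte markers (2339 to 4300 and 1973 to 4111 CPM) and 6 alveolar markers (2212 to 8429 and 38.0 to 2415 CPM). The sum of 6 endothelial markers did not: it was 278 to 448 CPM in VEH and 93.9 to 258 CPM in HDM tumours. Single markers of an overlapping sum could still separate. Of the macrophage list C1qa and C1qb, and of the leukocyte list 1 marker, were lower in every HDM tumour than in any VEH tumour. Of 6 dendritic cell markers 4 were lower under HDM without overlap and 0 higher (median log2 fold change -1.53), and 0 passed. Their sum overlapped, at 39.3 to 46.1 CPM in VEH and 36.4 to 44.0 CPM in HDM tumours. Clec9a, one of the 6, had a higher mean in HDM tumours (29.8 CPM) than in VEH tumours (19.3 CPM), with overlap. Tumour HDM replicate 3, the lowest library for 9 members, was also the lowest of the 6 tumours in each of the T cell, natural killer, leukocyte, macrophage, alveolar, airway and endothelial sums. The same held for its sums of B and plasma cell (5.76 CPM) and cardiac muscle markers (0 CPM). It was the highest tumour in the dividing-cell (952 CPM) and adipocyte sums (22.2 CPM). In the dendritic cell, neutrophil, fibroblast and mesothelial sums it was not the lowest. Its macrophage sum was mostly Lyz2 (1110 CPM). The same library was the highest tumour for Adgre1 (90.2 CPM) and Marco (4.25 CPM). It was above both other HDM tumours for C1qa (246 CPM) and C1qb (254 CPM). Of the leukocyte markers, Ptprc (41.0 CPM) and Coro1a (85.9 CPM) were not at their lowest there. The part of these cell types in the members' differences was not tested.

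**Figure D5:**
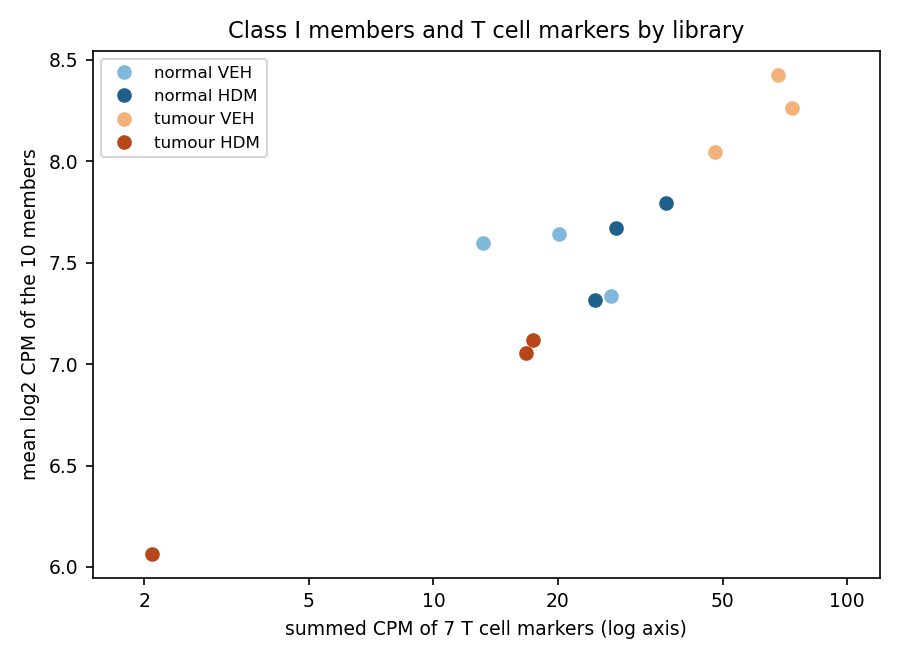
Mean log2 CPM of the 10 members (y axis) against the summed CPM of 7 T cell markers (x axis, log scale) in 12 libraries, colored by group. VEH tumours lie at the upper right (47.9 to 73.8 CPM) and tumour HDM replicate 3 at the lower left (2.09 CPM), and HDM tumour replicates 1 and 2 have T cell sums within the range of normal VEH but lower member means.

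Several members share exon bases with another gene, which matters because whether the counting used strand is not given in the sources used here. For H2-K1, 26.8% of exon bases in GENCODE M39 lie opposite Gm53999, whose log2 fold change between the tumour groups was -1.97 ± 0.44. For H2-D1, 24.2% lie opposite 5430410E06Rik (-1.10 ± 0.39). H2-T22 (29.8%) and H2-T23 (11.9%) share bases with A930015D03Rik (-1.59 ± 0.26). Tap1 shares 12.4% with Psmb9 (-2.10 ± 0.32), Tap2 14.6% with Gm20496 (-1.57 ± 0.27) and Gm15821 (-1.12 ± 0.16), and Erap1 10.3% with Cast (0.23 ± 0.17). Tapbp shares 52.8%: with Zbtb22 on the same strand (20.9%, 0.38 ± 0.27), and on the opposite strand with Gm19412 (25.6%, -1.05 ± 0.35) and Gm64688 (7.39%, -1.20 ± 0.26). B2m shares none and Nlrc5 0.918%. Reads of the opposite genes cannot be told apart without strand. H2 genes are also a family of similar copies, and how reads that match several of them were counted is not given either, so single H2 values are uncertain. B2m, with neither limit, was lower in each HDM tumour (688, 619 and 284 CPM) than in any VEH tumour (1640 CPM and above). It did not pass (adjusted p 0.118, edgeR), and 10.7% of all genes were lower without overlap. Nlrc5, with 0.918% shared and outside the H2 family, overlapped between VEH (12.2 to 38.5 CPM) and HDM tumours (7.46 to 15.2 CPM).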

How the data were processed

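RNA of 12 mouse lung libraries was sequenced from both ends by a stranded dUTP method, per the labels' protocols, which name poly(A) selection or ribosomal RNA depletion without choosing. The authors deposited raw counts per Ensembl gene with gene lengths, per the file headers. Trim Galore, STAR and Subread featureCounts and the build mm39 are named in the submitters' processing notes. Annotation, strand setting and treatment of multiply matching reads are not given in the sources used here. Symbols and coordinates came from GENCODE M39 (GRCm39), which holds 78168 of the 78298 identifiers. The deposited length equals its exon length for 1 of the 10 members. The members, pathway lists and marker lists were chosen with earlier results of these data known.

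Tests used edgeR 4.0.16 under R 4.3.3: filterByExpr (minimum count 10), TMM, 1 coefficient per group over all 12 libraries, and the robust quasi-likelihood F-test (two-sided), adjusted by Benjamini-Hochberg over 22190 genes, with a threshold of 0.05. The SE is the log2 fold change over the square root of F. Levels are TMM-scaled CPM. Log2 CPM has a prior count of 2. Groups of 3 counts or fewer in each library have no fold change printed. With 3 libraries a group, an exact permutation test could not go below 0.1, so none was used. Replicates of a group differed by far more than counting noise (chi-square per degree of freedom 29.1 to 278), so none was treated as a copy of another, which does not show that they came from separate animals. The fit was tested on simulated data. From each of 8 pathway lists the text names the called genes with the 2 largest changes in each direction, genes in counts of 5 or fewer, and a few regulators and peptide-supply genes fixed by name, of which 1 is not reported here. Alternatives were DESeq2 size factors, library-size scaling, other filters, the Wald test (DESeq2 1.42.0), fitting 2 groups at a time, blocks for replicate number and prefix, dropping the 4 libraries whose prefixes conflict, and leaving out single libraries.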

Additional observations from a re-analysis of the deposited data

How the results depend on the processing

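Members called numbered 4 for tumour against normal under VEH, 4 under HDM, 2 between tumours and 0 for the interaction. Under VEH the count was 2 with DESeq2 size factors (38.7% of all genes tested passed in that fit), 7 with library-size scaling (39.2%), 2 when each library had to hold 10 counts (45.1%), 1 with the prefix block (26.1%), 1 without the 4 libraries of conflicting prefixes (25%), 2 to 4 leaving out 1 library (24.7% to 39.2%), and 7 (41.2%) without both tumours that stand apart (VEH replicate 2 and HDM replicate 3, an alternative chosen after seeing the data). Under HDM it was 8 when each library had to hold 10 counts (51.7%) and 8 with DESeq2's Wald test (55.9%). It was 6 there with DESeq2 size factors (51.3%), 3 with library-size scaling (53.6%) and 3 to 5 leaving out 1 library (42.5% to 46.5%). Between tumours it was 0 with library-size scaling, 8 with DESeq2's Wald test, 0 fitting only these groups, 0 with the prefix block, 0 without the 4 libraries, 0 to 1 leaving out 1 library, and 1 without both tumours that stand apart, where these edgeR fits called 0% to 0.104% of all genes. DESeq2's Wald test called 5 for the interaction. Of the pathway genes, 5 passed between tumours, and the count was 8 with no filter, 21 with DESeq2's Wald test, 0 fitting only these groups, 0 with the prefix block, 0 without the 4 libraries, 0 to 4 leaving out 1 library, and 3 without both tumours that stand apart. The Wald test called 7 pathway genes for the interaction, and leaving out 1 library 0 to 1. The numbers of samples or genes tested fell in the fits that removed libraries or genes. For the others the cause was not tested.

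Between tumours all 160 alternative values of single members kept their negative sign (128 on the same side of the threshold, 23 no longer past it and 9 newly past it), and so did all 210 for the interaction. Signs turned elsewhere: H2-K1 under VEH ran from -0.15 to 0.31 leaving out 1 library and was -0.13 without both tumours that stand apart, and Erap1 under HDM was -0.028 when each library had to hold 10 counts. In adjacent lung, leaving out 1 library gave -0.11 to 0.23 for H2-K1, -0.13 to 0.44 for H2-D1, -0.11 to 0.19 for H2-T23 and -0.12 to 0.39 for B2m, and the prefix block gave 0.16 for Erap1.

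Replicate numbers do not pair the libraries: deviations from group means of the 18 same-numbered pairs correlated at -0.36 to 0.30, and 8 were over 0.1. With the replicate block the members called were 3 under VEH, 7 under HDM, 0 between tumours and 0 for the interaction, pathway genes called between tumours were 0, and H2-K1 in adjacent lung was -0.028. Same-prefix pairs correlated at -0.22 to 0.18.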

Other observations

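Cross-presentation, by which dendritic cells load peptides of engulfed material on class I molecules, was followed through 8 genes. In tumour against normal tissue, the translocon subunit Sec61a1 rose under VEH (0.58 ± 0.14) and HDM (0.54 ± 0.14), and the vesicle gene Rab27a fell under both (-2.05 ± 0.51 and -2.98 ± 0.53). Under HDM the dendritic cell marker Xcr1 (-2.04 ± 0.78, adjusted p 0.0470, edgeR) and Wdfy4 (-1.18 ± 0.45, adjusted p 0.0498) also fell. Clec9a, likewise a dendritic cell marker, rose (0.76 ± 0.29, adjusted p just inside the threshold, edgeR). In each fit that left out 1 library of these groups, 1 gene of the list fell under HDM, and under VEH none fell without tumour VEH replicate 1. Of 6 dendritic cell markers 4 fell and 1 rose under HDM, and 1 fell under VEH. Of all genes, 51.9% passed in either direction under HDM and 38.9% under VEH. Xcr1 and Clec9a belong to both lists, so the marker counts partly repeat the genes above. Between the tumour groups none of the 8 cross-presentation genes passed, and Xcr1 and Batf3 were lower under HDM without overlap (-1.91 ± 0.78 and -1.89 ± 0.66).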
